A study of Bos taurus with 11 samples.

Results

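Chemokines and their receptors are described here in the endometrium of 5 subfertile and 6 fertile cows. Members were all non-control probes of the array whose gene name began with CCL, CXCL, CX3C, XCL, XCR, CCR, CXCR or ACKR and a number, or was IL8. This gave 96 of 43653 non-control probes under 46 of 25325 gene names, which current RefSeq symbols resolve into 50 genes, 33 of ligands and 17 of receptors. Every biopsy was taken on day 7 of the oestrous cycle, and each cow was a separate animal hybridised to 1 array. Subfertile cows had failed to conceive in 3 successive embryo transfers or inseminations, although their genital tracts and cycles appeared normal. Fertile cows had conceived within 3 such attempts before biopsy and again at the first embryo transfer after it. A biopsy mixes epithelium, stroma, vessels and blood-borne cells, so fewer cells of a type and less RNA per cell cannot be told apart.

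Chemokines are small secreted proteins that draw cells along a gradient by binding receptors that couple to G proteins. Inflammatory ligands are induced by cytokines and bacterial products and recruit neutrophils, monocytes and lymphocytes, whereas homeostatic ligands position cells in resting tissue. CXCL12, made by stromal cells, signals through CXCR4, while ACKR3, the gene the array calls CXCR7, is an atypical receptor that binds and internalises CXCL12. In the endometrium, chemokines are known for guiding leukocytes over the cycle and in early pregnancy.

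The calls described below rest on the following oligonucleotides of the array, which are shown because different probes of the same gene gave different answers. The first 30 of the 60 bases of each tested probe are given for the 4 genes with a probe past the threshold, with positions on build HGSC Btau_3.1 and on the plus strand, per the file headers and probe annotation. Probes of a gene are numbered along the chromosome. Capitals mark the 15 bases that the printed stretches of CXCL12 probes 6 and 7 have in common.
CXCL12 probe 1, chr28:45222274-45222333: agtgtgcattgacccgaaattgaagtggat
CXCL12 probe 2, chr28:45222344-45222403: caaccaaaacggactttccactagacccac
CXCL12 probe 3, chr28:45223577-45223636: tatagtcaaacagttcctatatttggagtg
CXCL12 probe 4, chr28:45223644-45223703: atcgtaaactactggccatttgtaaagaag
CXCL12 probe 5, chr28:45230687-45230746: cagcctctgagcaatgatgggttcagtgtt
CXCL12 probe 6, chr28:45230746-45230805: tttaaatggcatctcCCACAAAATGTGAAA
CXCL12 probe 7, chr28:45230761-45230820: CCACAAAATGTGAAAatggtcccggagaag
CXCR4 probe 1, chr2:64219102-64219161: gtctgaatcttcaagttttcactccagcta
CXCR4 probe 2, chr2:64219401-64219460: gaaatcacttaggctagaaatgattctcag
ACKR3 probe 1, chr3:123589672-123589731: gacttttctgtgctgcctaaaggtttcata
ACKR3 probe 2, chr3:123589848-123589907: cttccgttttgactaaggatgacattaatt
CCR1 probe, chr22:54591448-54591507: ttactcttctactattgttgtctttaagca
The annotation places CXCL12 probes 1 to 4 on 1 RefSeq transcript, from base 242 onward, and probes 5 to 7 on a predicted transcript variant, from base 3322 onward. Probes 6 and 7 overlap and are therefore not independent measurements.

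Levels are log2 processed signals minus the 75th percentile of the same array, so that a difference of 1 is a 2-fold change. Probes well above background on at least 5 of the 11 arrays were tested for a difference between the groups with limma, with Benjamini-Hochberg adjustment over all 31877 tested probes and a threshold of 0.05. The subfertile arrays were dimmer, with median processed signals of 54.3 to 92.7 against 161 to 452 on fertile arrays. Between 47 and 56 member probes were well above background on subfertile arrays and between 54 and 63 on fertile arrays. No slide and no scan day held both groups, so slide, scan day and group cannot be told apart and no value within a slide could be had. General epithelial and stromal markers were present, 9 of 9 on the array of each kind passing the detection filter, but markers particular to endometrium were not checked. All probes called on the array numbered 7074, of which 4722 were higher and 2352 lower in subfertile cows, against 3136 higher and 3449 lower with arrays centred on their medians and 3243 higher and 3146 lower with quantile normalization.

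Of the 96 member probes, 54 from 31 genes were tested. The chemokine ligand CXCL12 was higher in subfertile cows, and both of its receptors, ACKR3 and CXCR4, were lower, as was CCR1, a receptor for inflammatory CC chemokines. CXCR4 passed at 1 of its 2 probes, and the CXCR4 and CCR1 calls were each lost in 9 of 11 omissions of a single cow. With slide as a random block, only the ACKR3 calls held. In all, 8 of the 54 tested probes passed the threshold (14.8%), against 22.2% of all tested probes, so the share called was below that of the array as a whole. The 4 higher probes of the 54 were all of CXCL12, a share below the 14.8% of all tested probes called higher. The 4 lower probes of the 54 were of ACKR3, CXCR4 and CCR1, a share about equal to the 7.38% of all tested probes called lower. The groups did not overlap for 3 of the 54 tested member probes, a share below the 13.5% of all tested probes. The median difference was 0.14 for tested member probes and 0.07 for all tested probes.

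The calls among ligands all came from CXCL12 and were higher, and those among receptors came from 3 genes and were lower. Among 42 tested ligand probes, 4 were higher (9.52%, against 14.8% of all tested probes) and 0 lower, and their median difference was 0.22. Among 12 tested receptor probes, 0 were higher and 4 lower (33.3%, against 7.38% of all tested probes), and their median difference was -0.48. These 4 probes are of 3 genes, so they are not independent measurements. With each gene represented by its brightest tested probe, 1 of 31 genes was higher and 3 were lower (12.9%, against 22.1% of 18547 gene names on the array). Among these genes, 19 differences were above 0 and 12 below it. The calls fell in the CXCL12 axis, with 7 of 11 tested probes (63.6%), and in the inflammatory CC family, with 1 of 18 (5.56%), against 22.2% of all tested probes. The 11 probes of the CXCL12 axis are of only 3 genes, and 7 of them are of CXCL12, so they are not independent measurements.

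**Figure D1:**
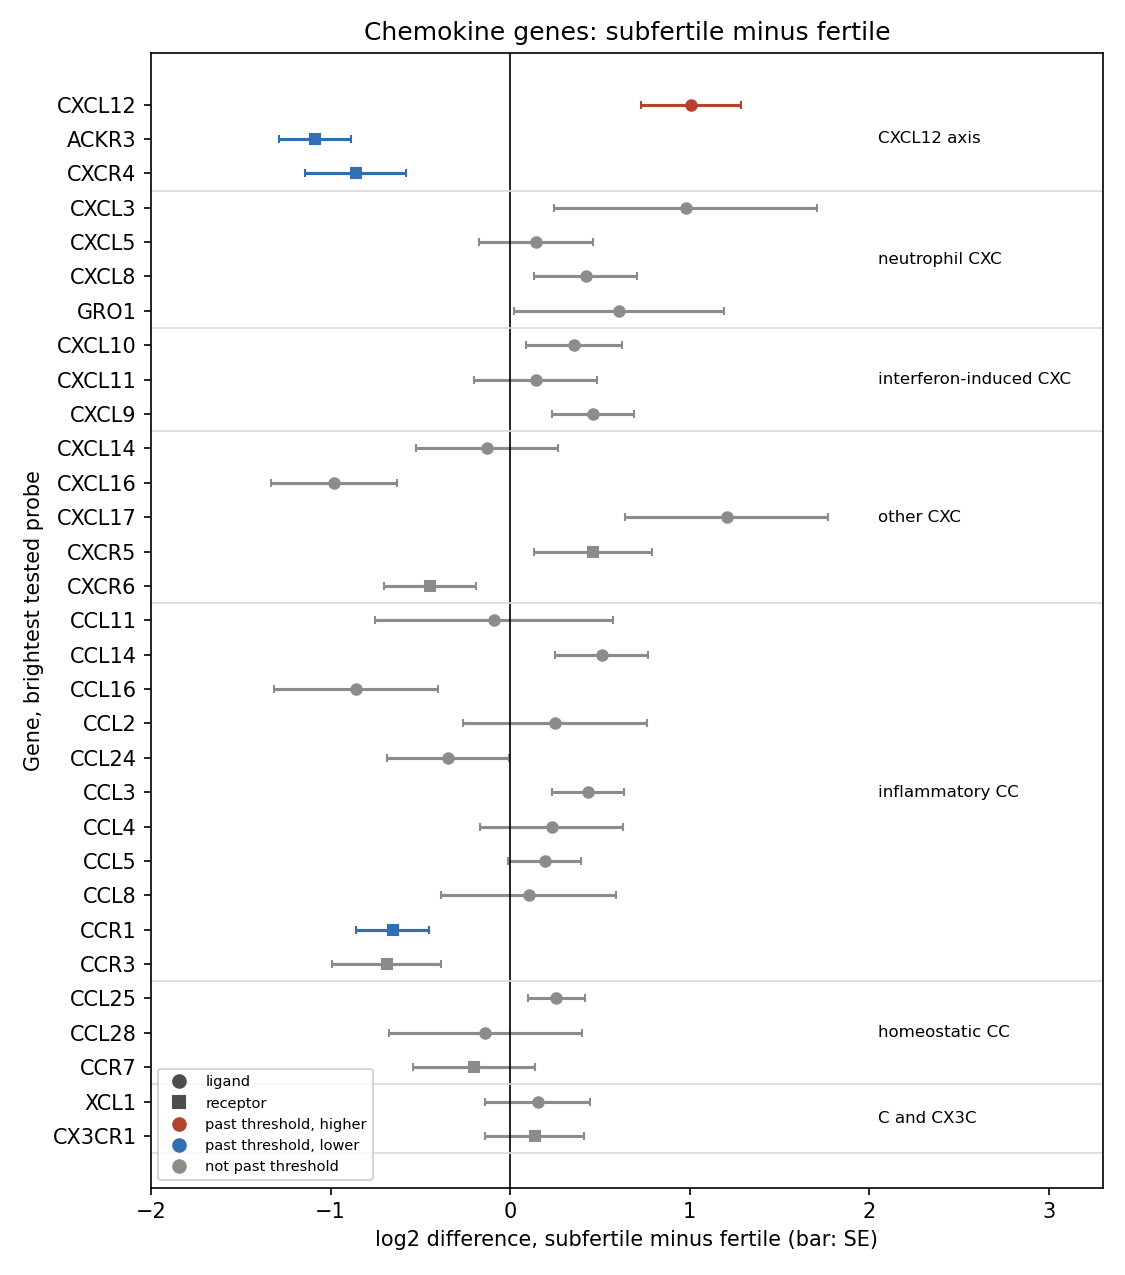
Log2 difference of subfertile minus fertile cows for the brightest tested probe of each of 31 chemokine ligand and receptor genes, with bars for the SE of the limma fit (5 subfertile and 6 fertile cows). Coloured points passed the threshold: CXCL12 lies at 1.01, and ACKR3, CXCR4 and CCR1 lie at -1.09, -0.86 and -0.65.

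CXCL12 was measured by 7 tested probes, and all 7 differences were above 0. At probe 7, the brightest, the 5 subfertile cows had levels of 2.86, 2.83, 1.99, 2.36 and 2.52, against a lowest of 0.76, a median of 1.53 and a highest of 2.19 in 6 fertile cows. Thus 4 of the 5 subfertile cows lay above every fertile cow, and subfertile cow 3 lay within the fertile range. The mean was 2.51 ± 0.36 in subfertile cows and 1.51 ± 0.60 in fertile cows (SD, n = 5 and 6), a difference of 1.01 ± 0.28 (SE), or 2.01-fold, with a limma adjusted p of 0.0254. Probe 6, which overlaps it, gave 2.49, 2.44, 1.55, 1.89 and 2.02 in subfertile cows, against 0.44, 1.11 and 1.75 as the lowest, median and highest fertile levels. Again 4 subfertile cows lay above the highest fertile cow, and the difference was 0.99 ± 0.26 (limma adjusted p = 0.0212).

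The probes at the other end of CXCL12 gave the same direction. Probe 1 had levels of -2.48, -2.18, -2.64, -2.63 and -2.45 in subfertile cows, against a lowest of -3.93, a median of -3.22 and a highest of -2.64 in fertile cows. It was the only CXCL12 probe at which the groups did not overlap, although the nearest cows of the groups shared the same rounded level, and the difference was 0.75 ± 0.20 (limma adjusted p = 0.0203). Probe 2 had levels of -4.62, -4.66, -4.97, -5.29 and -5.67 in subfertile cows, against -6.39, -5.96 and -5.36 as the lowest, median and highest fertile levels. Here 4 subfertile cows exceeded the highest fertile cow, and the difference was 0.90 ± 0.22 (limma adjusted p = 0.0151). The probe was well above background on 4 of 5 subfertile and 6 of 6 fertile arrays. The lowest level that counted as well above background on subfertile arrays was -6.24 to -5.40, a range that holds most fertile levels of this probe. Probe 2 is therefore near the floor, and the part of background in its difference was not tested.

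The remaining CXCL12 probes did not pass. Probe 5, next to the brightest ones, differed by 0.75 ± 0.27 (limma adjusted p = 0.0689). Probes 3 and 4, which lie 1.303 and 1.37 kb from probe 1, differed by 0.20 ± 0.21 and 0.37 ± 0.20 (limma adjusted p = 0.514 and 0.199), and at each of them 1 subfertile cow lay above the highest fertile cow. With slide as a random block, 0 CXCL12 probes passed, the 4 probes called without it having limma adjusted p-values of 0.0523 to 0.0783, and with scan day as the block these were 0.154 to 0.191. The call at probe 7 was also lost without subfertile cow 1, 2 or 5 (differences over all 11 single omissions 0.86 to 1.14). Among stromal markers, 2 of 9 tested were higher, DCN and COL3A1, and 1 was lower, FBN1, against 14.8% and 7.38% of all tested probes. The summed level of the stromal markers on a linear scale was 331 to 497 in subfertile and 297 to 393 in fertile cows. The brightest markers weigh most in that sum. The median difference of the 9 markers was -0.16. Their mean log2 level was 2.85 to 3.34 in subfertile and 3.24 to 3.40 in fertile cows. The part of stroma in the CXCL12 values was not tested.

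**Figure D2:**
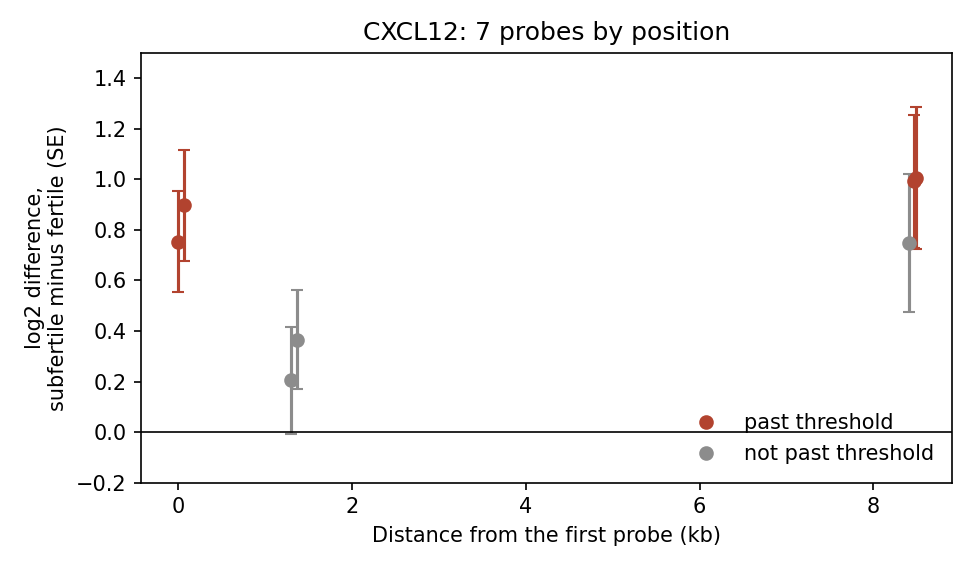
Log2 difference of subfertile minus fertile cows at the 7 CXCL12 probes, against the distance of each probe from probe 1 in kb, with bars for the SE (5 subfertile and 6 fertile cows). The probes 1.303 and 1.37 kb away show the smallest differences, 0.20 and 0.37, whereas the other 5 lie between 0.75 and 1.01.

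ACKR3, which takes CXCL12 and CXCL11 into the cell, was lower in subfertile cows at both of its probes. Probe 1 had levels of -1.22, -1.22, -0.82, -0.85 and -1.27 in subfertile cows, against a lowest of -0.68, a median of -0.0038 and a highest of 0.50 in fertile cows. Every subfertile cow lay below every fertile cow. The mean was -1.08 ± 0.22 in subfertile cows and 0.0080 ± 0.42 in fertile cows (SD, n = 5 and 6), and the difference of -1.09 ± 0.20 (SE) was 2.12-fold lower, with a limma adjusted p of 0.00416.

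Probe 2 of ACKR3 had levels of -1.37, -1.67, -1.36, -1.56 and -1.79 in subfertile cows, against -0.92, -0.55 and 0.13 as the lowest, median and highest of 5 fertile cows, the outlier spot of fertile cow 1 being left out. The groups did not overlap here either, and the difference was -1.12 ± 0.19 (limma adjusted p = 0.00341). Both ACKR3 calls held when each cow was left out in turn and with slide as a random block (limma adjusted p = 0.0212 and 0.0137). With scan day as the block, the call of probe 2 held (limma adjusted p = 0.0475) and that of probe 1 did not (limma adjusted p = 0.0678). No slide or scan day held both groups, so neither block can remove an offset between the groups.

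CXCR4, the receptor through which CXCL12 draws lymphocytes, monocytes and progenitor cells, was lower at probe 2. Its levels were -1.51, -2.17, -1.16, -1.91 and -1.92 in subfertile cows, against a lowest of -1.70, a median of -0.97 and a highest of -0.02 in fertile cows. The groups overlapped, with 3 subfertile cows below every fertile cow and 5 fertile cows above every subfertile cow. The mean was -1.73 ± 0.40 in subfertile cows and -0.87 ± 0.59 in fertile cows (SD, n = 5 and 6), a difference of -0.86 ± 0.28 (SE; limma adjusted p = 0.0478).

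CXCR4 probe 1 differed by -0.51 ± 0.30 and did not pass (limma adjusted p = 0.243). The call of CXCR4 probe 2 lay close to the threshold: it was lost in 9 of 11 omissions of a single cow, at every omission but those of fertile cow 6 and subfertile cow 3 (differences -1.03 to -0.69), with slide as a random block (limma adjusted p = 0.185) and with scan day as the block (limma adjusted p = 0.302).

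**Figure D3:**
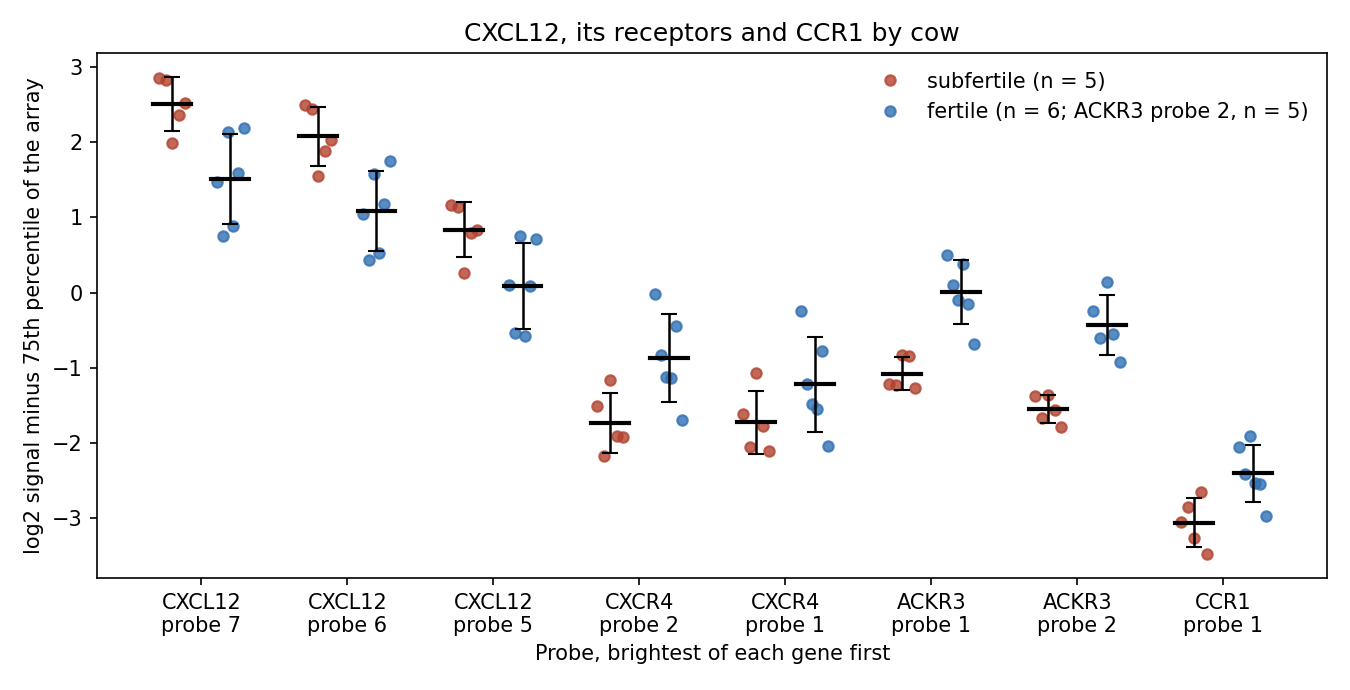
Levels by cow (log2 signal minus the 75th percentile of the array) at CXCL12, CXCR4, ACKR3 and CCR1 probes, subfertile cows left of fertile cows, with bars for mean ± SD (n = 5 and 6, but 5 fertile values at ACKR3 probe 2). Groups overlap at the CXCL12, CXCR4 and CCR1 probes plotted and do not overlap at either ACKR3 probe, where the highest subfertile levels are -0.82 and -1.36 and the lowest fertile levels -0.68 and -0.92.

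CCR1, a receptor on monocytes and neutrophils that binds CCL3 and CCL5, was lower in subfertile cows. Its tested probe had levels of -3.05, -2.85, -3.26, -2.65 and -3.48 in subfertile cows, against a lowest of -2.98, a median of -2.48 and a highest of -1.91 in fertile cows. The groups overlapped, with 3 subfertile cows below every fertile cow, and the difference was -0.65 ± 0.20 (SE; limma adjusted p = 0.0402). The other CCR1 probe was not above background on any array. The call was lost in 9 of 11 omissions of a single cow, at every omission but those of fertile cow 6 and subfertile cow 4 (differences -0.77 to -0.55), when slide or scan day was made a random block (limma adjusted p = 0.0906 and 0.250), and with normexp background correction, where the difference was -0.14 and the median of all tested probes was 0.33.

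CXCR4 and CCR1 are carried by leukocytes, whose markers are listed next. Of all tested probes, 14.8% were called higher and 7.38% lower, the shares to read these counts against. The part of leukocytes in the CXCR4 and CCR1 values was not tested. Among pan-leukocyte genes, 1 of 6 tested was lower, PTPRC, the common leukocyte antigen (-0.95 ± 0.21, limma adjusted p = 0.00909), and 0 were higher. The summed level of these genes was 5.87 to 11.4 in subfertile and 7.59 to 11.1 in fertile cows, so the sums overlapped. For macrophages and monocytes, 0 of 10 tested were higher and 1 was lower, VSIG4, with sums of 8.98 to 26.5 in subfertile and 6.59 to 24.6 in fertile cows. For T and natural killer cells, 2 of 13 tested were higher, CD4 and PRF1 (1.45 and 0.94), and 0 lower, with sums of 12.9 to 18.7 in subfertile and 10.1 to 16.3 in fertile cows.

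The ligands of CCR1 did not pass the test. CCL5, which attracts T cells and monocytes, had a median level of 1.67 in subfertile cows and 1.47 in fertile cows at its brightest probe, with highest levels of 2.07 and 2.11, a difference of 0.19 ± 0.20. CCL3, a macrophage inflammatory protein, differed by 0.43 ± 0.20 (limma adjusted p = 0.141), and 3 subfertile cows lay above the highest fertile cow at its brightest probe, where the difference was 0.24 without subfertile cow 5. Its second tested probe differed by -0.04 ± 0.26, the opposite sign. CCL14, a CCR1 ligand known from human tissue, differed by 0.51 ± 0.26 (limma adjusted p = 0.176).

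CCL16, another ligand of CCR1 known from humans, had a difference of -0.86 ± 0.46 (limma adjusted p = 0.195). Its levels were -2.16, -2.84, -2.02, -4.84 and -2.82 in subfertile cows, against -2.60, -2.12 and -1.20 as the lowest, median and highest fertile levels. Subfertile cow 4 lay far below the rest, and without it the difference was -0.38. CCL4, a close relative of CCL3, differed by 0.23 ± 0.40, and by -0.14 without subfertile cow 5.

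CCL2 and CCL8, which recruit monocytes through CCR2, did not pass. CCL2 had levels of -1.57, -1.24, -1.65, -1.48 and 0.75 in subfertile cows, against a lowest of -2.63, a median of -1.45 and a highest of 0.07 in fertile cows. Only subfertile cow 5 stood above the fertile range, and the difference of 0.25 ± 0.51 became -0.20 without that cow. CCL8 likewise differed by 0.10 ± 0.49 with subfertile cow 5 and by -0.32 without it. The second tested probe of CCL2 differed by -0.14 ± 0.46 with all cows, the opposite sign to its brightest probe. CCR2 was not above background on any array.

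CCR3, the receptor of eosinophils, had levels of -5.26, -4.87, -4.39, -5.66 and -4.86 in subfertile cows, against -5.04, -4.39 and -3.27 as the lowest, median and highest fertile levels. The groups overlapped and the difference of -0.69 ± 0.30 did not pass (limma adjusted p = 0.123). Its ligands CCL11 and CCL24, the eotaxins, differed by -0.09 ± 0.66 and -0.35 ± 0.34. CCL11 was well above background on 1 of 5 subfertile and 4 of 6 fertile arrays, and CCL26, the remaining eotaxin, on 0 and 1 arrays.

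CXCL16, which exists as a membrane-bound and a shed ligand of CXCR6, had the second largest difference of the genes that did not pass. Levels at its brightest probe were 1.63, 1.82, 3.20, 3.03 and 2.02 in subfertile cows, against a lowest of 2.42, a median of 3.47 and a highest of 3.85 in fertile cows. Subfertile cows 1, 2 and 5 lay below every fertile cow, whereas cows 3 and 4 lay within the fertile range. The difference was -0.98 ± 0.35 (limma adjusted p = 0.0655), and it passed with arrays centred on their medians (limma adjusted p = 0.0454), with array weights (limma adjusted p = 0.0371) and with normexp background correction (limma adjusted p = 0.0146). It did not pass with quantile normalization, the authors' values, no filter on dim probes or trended and robust variance. Nor did it pass with slide, scan day or replicate number as a block. The other tested probes of CXCL16 differed by -0.41 ± 0.68 and -0.43 ± 0.37.

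CXCR6, carried by activated T cells and natural killer cells, had levels of -1.67, -0.90, -0.72, -0.50 and -1.82 in subfertile cows, against -1.11, -0.68 and -0.13 as the lowest, median and highest fertile levels. Subfertile cows 1 and 5 lay below every fertile cow, while the other 3 lay within the fertile range, and the difference of -0.45 ± 0.26 did not pass (limma adjusted p = 0.229). Both the ligand and the receptor of this pair had differences below 0, neither past the threshold.

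CXCL9, CXCL10 and CXCL11, which interferon gamma induces and which act through CXCR3, had differences above 0 that did not pass. CXCL9 differed by 0.46 ± 0.23 (limma adjusted p = 0.168), CXCL10 by 0.35 ± 0.27 and CXCL11 by 0.14 ± 0.34. Subfertile cow 4 was the highest of its group for each of them, with 1.18 for CXCL10 against a fertile range of -0.64 to 0.30. Without that cow the differences were 0.29 for CXCL9, 0.13 for CXCL10 and -0.0545 for CXCL11. CXCR3, carried by effector T cells and natural killer cells, was well above background on 0 of 5 subfertile and 3 of 6 fertile arrays and was not tested.

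**Figure D4:**
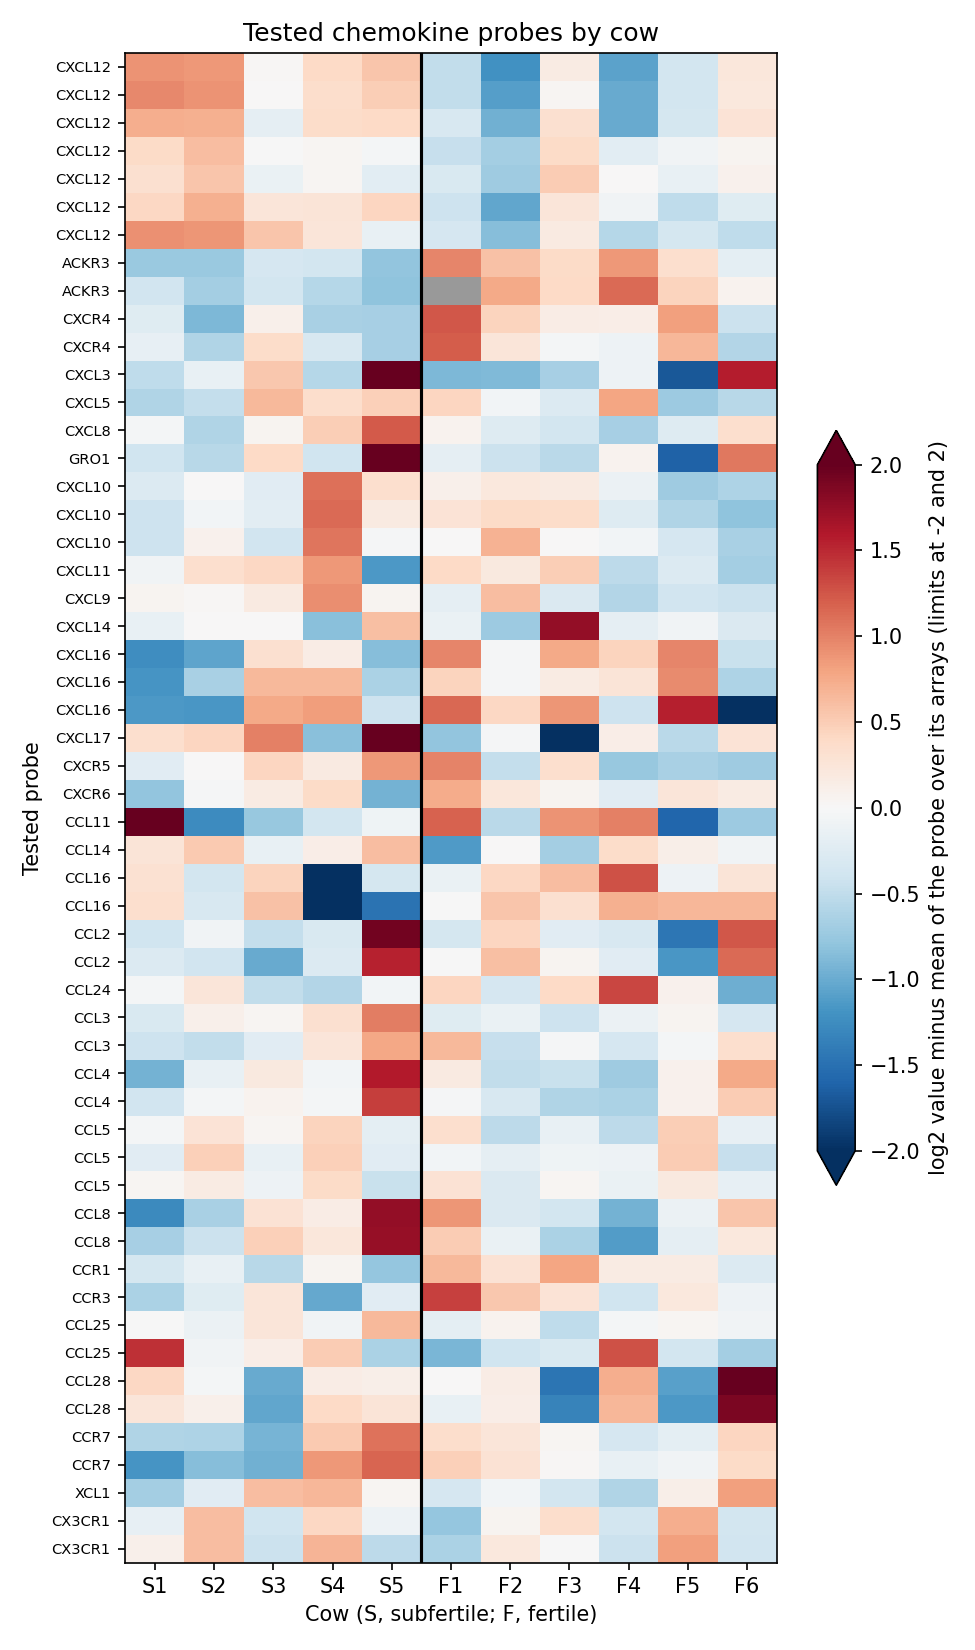
Levels of the tested chemokine and receptor probes by cow, subfertile cows (S1 to S5) left of fertile cows (F1 to F6), each row centred on its own mean, with grey for a spot left out. Subfertile cow 5 is high for CXCL3, GRO1, CCL2 and CCL8, and ACKR3 is lower in each subfertile cow than in each fertile cow measured.

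The CXC ligands that attract neutrophils varied widely between cows and none passed. Probes that the array names CXCL2 belong to CXCL3, CXCL2 and GRO1 by their RefSeq accessions, with 1 probe unmatched, and their sequences are close relatives of each other, so signal may be split among them. CXCL3 had levels of 0.02, 0.40, 1.08, -0.03 and 3.90 in subfertile cows, against a lowest of -1.15, a median of -0.23 and a highest of 2.11 in fertile cows. The difference of 0.98 ± 0.73 (limma adjusted p = 0.361) became 0.27 without subfertile cow 5. GRO1, the growth-related chemokine, differed by 0.61 ± 0.59 with subfertile cow 5 and by 0.04 without it.

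CXCL8, the neutrophil attractant that the array calls IL8, differed by 0.42 ± 0.29 (limma adjusted p = 0.315), and by 0.17 without subfertile cow 5, and CXCL5 by 0.15 ± 0.32. Both were detected on 4 of 5 subfertile and 6 of 6 fertile arrays. Subfertile cow 5 had the highest CXCL8 level of its group, -4.16, against a highest of -5.05 in fertile cows. The receptors of these ligands were dim: CXCR1 was well above background on 0 of 5 subfertile and 1 of 6 fertile arrays and CXCR2 on 1 array of each group. By their accessions, 2 of the 3 probes that the array names CXCR2 are counted here as CXCR1. Among neutrophil markers, 1 of 7 tested was higher and 1 lower, against 14.8% and 7.38% of all tested probes. The higher one was ELANE (1.47 ± 0.27, limma adjusted p = 0.00407) and the lower one CATHL2 (-3.55 ± 0.35, limma adjusted p = 0.000175). CATHL2 was well above background on 1 of 5 subfertile and 6 of 6 fertile arrays. Sums of the 7 markers were 0.965 to 1.59 in subfertile and 0.881 to 1.60 in fertile cows, and CD177 was above background on 0 arrays. Subfertile cow 5 had the highest level of all 11 cows for 11 of the 31 genes, 10 of them ligands, while the next highest count was 6 genes, in fertile cow 1. The array of subfertile cow 5 was the dimmest, with a median processed signal of 54.3. It had 76 outlier spots, against 1 to 10 on the other subfertile arrays and 2 to 156 on fertile arrays. The part of array quality in its levels was not tested.

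CXCL17, a mucosal chemokine, had the largest difference that did not pass. Its levels were -3.14, -3.04, -2.47, -4.31 and -1.13 in subfertile cows, against -5.83, -3.76 and -3.21 as the lowest, median and highest fertile levels. Although 4 subfertile cows lay above every fertile cow, the spread was wide and the difference of 1.21 ± 0.57 did not pass (limma adjusted p = 0.146), being 0.79 without subfertile cow 5. CXCL14, a chemokine of epithelia and stroma, differed by -0.13 ± 0.40. CXCR5, the receptor that guides B cells, differed by 0.46 ± 0.33, and its ligand CXCL13 was well above background on 0 of 5 subfertile and 1 of 6 fertile arrays.

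Homeostatic CC chemokines gave 0 calls among 6 tested probes, against 22.2% of all tested probes. CCL25, the ligand of CCR9, had levels of 1.41 to 2.17 in subfertile cows and 1.02 to 1.59 in fertile cows, a difference of 0.26 ± 0.16 (limma adjusted p = 0.265), or 0.13 without subfertile cow 5, while CCR9 was well above background on 0 of 5 subfertile and 1 of 6 fertile arrays. CCL28, a mucosal ligand that attracts plasma cells, differed by -0.14 ± 0.54. CCR7, which guides dendritic cells and naive T cells, had levels of -5.19, -5.21, -5.51, -4.06 and -3.50 in subfertile cows, against -4.92, -4.45 and -4.15 as the lowest, median and highest fertile levels. Subfertile cows 1, 2 and 3 lay below and cows 4 and 5 above the whole fertile range, and the difference was -0.20 ± 0.34, or -0.50 without subfertile cow 5. The ligands of CCR7 were seldom detected, CCL19 on 0 of 5 subfertile and 2 of 6 fertile arrays and CCL21 on 1 and 2.

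XCL1, the lymphocyte attractant lymphotactin, and CX3CR1, the receptor of patrolling monocytes and natural killer cells, differed by 0.15 ± 0.29 and 0.14 ± 0.28. Both XCL probes are named XCL2 on the array, and the RefSeq accession of the detected probe is that of XCL1. The probe left as XCL2 and that of XCR1, the receptor of XCL1, were not above background on any array. CX3CL1, the ligand of CX3CR1, had no member probe and was not analysed here.

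In all, 19 of the 50 genes had no tested probe. The best probe was above background on 0 arrays for 5 of them, CCL17, CCR2, CCR8, XCL2 and XCR1, and on 1 to 4 arrays for the other 14. Of the receptor genes, 8 of 17 had a tested probe, and of the ligand genes, 23 of 33. CCR4 and CXCR3 were each above background on 0 of 5 subfertile and 3 of 6 fertile arrays, but the lowest level that counted as well above background was -6.24 to -5.40 on subfertile arrays and -7.04 to -6.58 on fertile arrays, so no fold is given. CCR4, CCL17 and CCL22, a receptor of regulatory T cells and its ligands, were thus all too dim to compare.

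**Figure D5:**
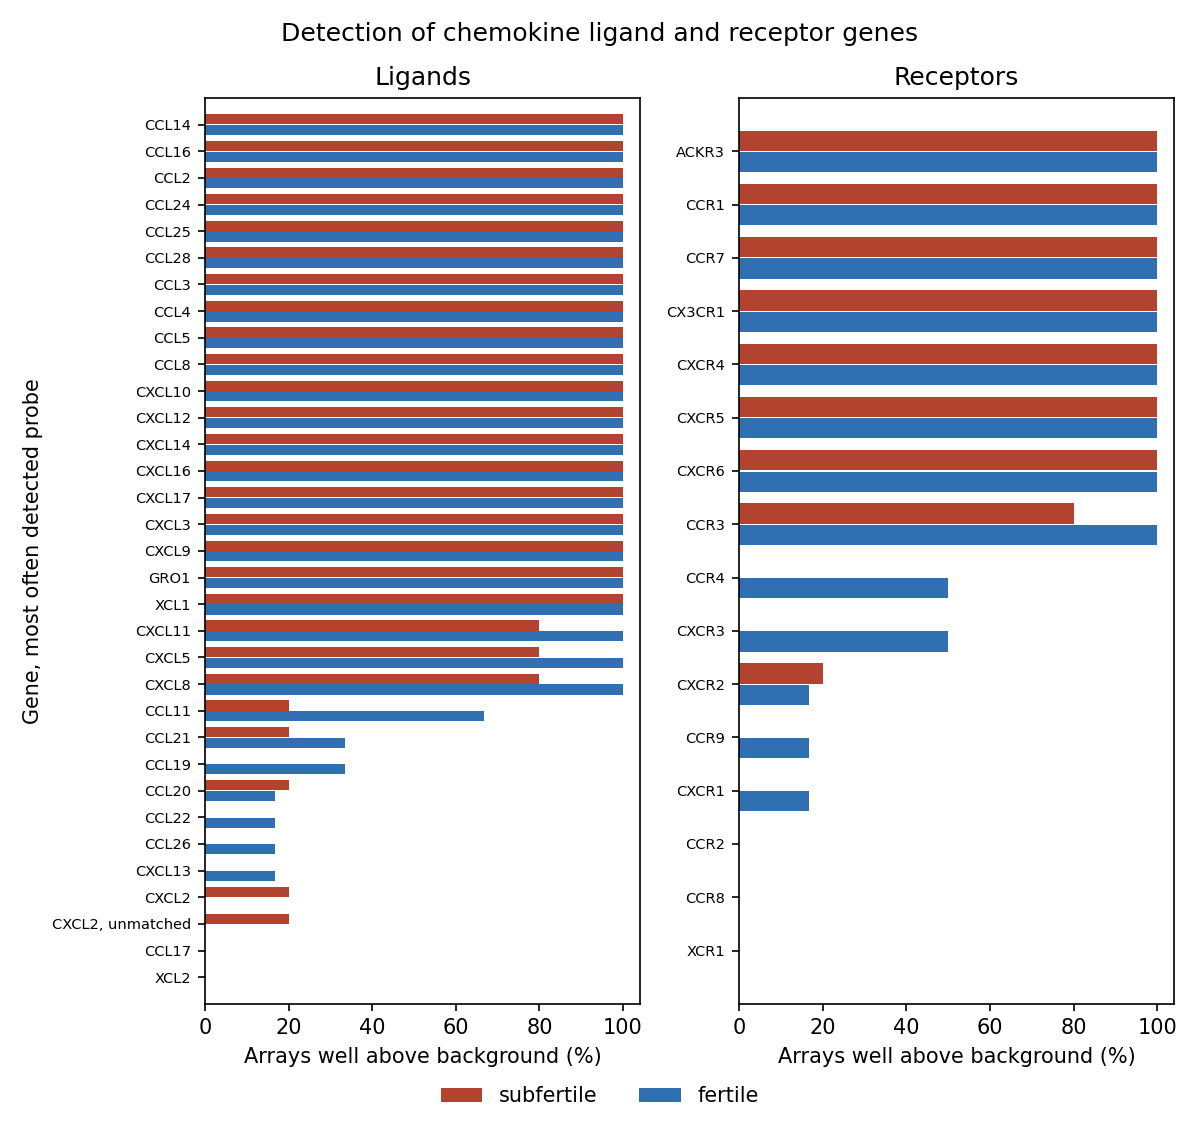
Share of arrays on which the most often detected probe of each gene shown was well above background, in percent of 5 subfertile and of 6 fertile arrays, with ligands on the left and receptors on the right. CCR4 and CXCR3 are among the genes with bars for fertile arrays only, on which lower levels counted as well above background.

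Genes that work with chemokines were taken from lists and set against the same 22.2% of all tested probes. Of the signalling genes downstream of the receptors, 2 of 27 tested were higher, VAV1, a Rac exchange factor (1.31 ± 0.22, limma adjusted p = 0.00258), and GNB2, a G protein beta subunit (0.72 ± 0.11), and 1 was lower, the kinase JAK2 (-0.46 ± 0.11). Of the cytokines and regulators that induce chemokines, 3 of 16 tested were higher, IFNGR1, RELA and NFKB2 (0.51, 0.37 and 0.43), and 1 was lower, NFKB1 (-0.59). Of the enzymes and proteoglycans that cleave or present chemokines, 2 of 7 tested were lower, the protease MMP2 (-0.66 ± 0.13, limma adjusted p = 0.00595) and the proteoglycan HSPG2 (-0.60 ± 0.17), and 0 were higher. Of chemokines and attractant receptors that the name rule leaves out, 1 of 8 tested was higher, CD74, a receptor of MIF (0.80 ± 0.16). The atypical receptors ACKR1 and ACKR2, which the array calls DARC and CCBP2, differed by 0.35 and 0.15 and did not pass.

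Markers of the remaining cell types a biopsy could hold were taken from the same lists. Their counts stand beside 14.8% of all tested probes called higher and 7.38% called lower. For epithelium, 6 of 9 tested were higher and 0 lower, among them the keratins KRT8 and KRT18 (0.81 and 0.96), with sums of 100.4 to 138 in subfertile and 47.1 to 102 in fertile cows. For endothelium, 2 of 7 tested were higher and 0 lower, with sums of 6.18 to 12.9 in subfertile and 6.57 to 8.62 in fertile cows, the marker VWF being above background on 0 arrays. For B and plasma cells, 1 of 6 tested was higher and 0 lower, with sums of 2.21 to 36.5 in subfertile and 3.23 to 11.1 in fertile cows. Dendritic markers had 0 of 5 tested higher and 1 lower, eosinophil and mast cell markers 0 of 4 in either direction, and platelet and erythroid markers 1 of 5 higher and 0 lower. The platelet and erythroid sums were 0.619 to 3.24 in subfertile and 0.406 to 0.886 in fertile cows, the highest in subfertile cow 5. The part of these cell types in the chemokine values was not tested.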

How the data were processed

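Cy3-labelled endometrial RNA was hybridised to 1-colour Agilent bovine arrays, 1 per cow, per the labels' protocols. The authors deposited scanner files with spot intensity on a linear scale and a table of log2 values used as an alternative. The extraction software, per the submitters' processing notes, was Agilent Feature Extraction in version 10.5.1.1. That deposited table holds each probe's log2 signal centred over the arrays (column medians -0.08 to 0.09); fertile cow 1 matched the scanner values at 17.0% of probes and the other arrays at 100%, relative to fertile cow 2. The file of fertile cow 6 lacks its header, so it was treated as its own slide and day, and its gene names are out of register, so names were joined by probe.

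Processed signals of a probe's spots were averaged without outlier and control spots, and log2 values were taken minus the array's 75th percentile. The fit, with group as the sole term, used limma 3.58.1 (R 4.3.3); 72 of 96 member accessions matched RefSeq (ARS-UCD2.0, names only). On simulated data for this comparison (31877 probes), the fit recovered 60 of 100 simulated 2-fold changes and 95 of 100 simulated 4-fold changes, with 7 false calls among 162. The simulated arrays had independent normal noise without slide or scan day effects. Far fewer probes were changed than the 7074 called in the data, so these rates do not carry over to the calls above. The number of arrays limits the precision. P-values measure the spread between arrays of a group, 1 per cow. That spread holds differences between cows and slide effects, and scan day effects among fertile arrays only. All subfertile arrays shared 1 scan day. An offset between the groups from slide or scan day lies in the difference, and the p-values do not allow for it. The consensus correlation was 0.447 within slides and 0.314 within scan days.

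A gene was represented by its brightest tested probe. Named with values were genes with a probe past the threshold, the 5 largest differences that did not pass, and fixed ligand and receptor pairs. Members and lists were chosen with earlier results of these data known. Alternatives covered background correction, normalization, filter, variance model, weights, blocks and omission of each cow. A member gene is counted in the totals but is not reported here.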

Additional observations from a re-analysis of the deposited data

Results flagged for a closer look

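In 5 of 62 groups of cows checked (8.06%), at the brightest tested probe of each gene, a cow stood apart from its own group by Dixon's criterion, which chance meets in about 1 in 20 groups. Subfertile cow 5 had a CCL2 level of 0.75, against -1.24 for the nearest subfertile cow. The same cow had a CXCL3 level of 3.90, against 1.08 for the nearest. For CXCL9, subfertile cow 4 had -1.56, against -2.31 for the nearest subfertile cow, and fertile cow 2 had -1.88, against -2.68 for the nearest fertile cow. For CXCL14, a chemokine of epithelia and stroma, fertile cow 3 had 1.67, against -0.16 for the nearest fertile cow.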

How the results depend on the processing

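Of the 8 member calls, 8 held with quantile normalization, median centring, the authors' table, no filter on dim probes, trended and robust variance and array weights, 7 with normexp and 7 of 7 tested when all 11 arrays had to be above background. Slide as a random block kept 2 (0 higher, 2 lower), scan day 1 (0 higher, 1 lower), and single omissions 3 to 8. Neither block can remove an offset between the groups, as no slide or scan day held both. Counts of member probes higher became 25 with normexp, 16 without the filter and 1 with a replicate block, and ranged from 1 (without subfertile cow 2) to 5 over single omissions, while those lower ranged from 2 to 5. They were 2 without any of fertile cows 1 to 5 or subfertile cows 1, 2 or 5. Over all tested probes, the higher count became 14931 with normexp, 3136 with median centring, 9661 without the filter, 2722 with slide, 788 with scan day and 3045 with a replicate block (omissions 3167 to 4666), and the lower count became 954 with slide and 190 with scan day (omissions 1358, without subfertile cow 2, to 2650).

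Signs turned only for genes that had not passed. With normexp, which moved the median of all probes from 0.07 to 0.33, CCL28 became 0.21, CCL11 1.25, CCL24 0.39, CCR7 0.77 and CCR3 0.52. CCL28 became 0.087 with array weights and 0.25 with a replicate block, CCL11 0.085 with slide as a block, and CXCL5 -0.0081 with quantile normalization. Omissions turned CCL28 (-0.44 to 0.25), CCL11 (-0.66 to 0.21), CCL2 (-0.20 to 0.52), CCL4 (-0.14 to 0.50), CCL8 (-0.32 to 0.43), CXCL11 (-0.0545 to 0.45), CXCL14 (-0.30 to 0.21), CX3CR1 (-0.0074 to 0.29) and CCR7 (-0.50 to 0.0034). Causes were not tested.

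Replicate numbers do not pair cows, which were separate animals: same-numbered cows had correlations of deviations of -0.21, 0.17, 0.22, -0.04 and -0.17. A fit with the number as a block kept 5 of the 8 calls. Dim signals limit 19 genes to detection counts.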

Other observations

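The CXCL12 probes fell into 3 stretches along the gene, grouped after their values were seen, so no test is given. Probes 5 to 7 minus probes 3 and 4 averaged 2.07 ± 0.23 in subfertile cows and 1.44 ± 0.37 in fertile cows (SD, n = 5 and 6), a gap of 0.63. Probes 1 and 2 minus probes 3 and 4 averaged -3.50 ± 0.11 in subfertile cows and -4.04 ± 0.15 in fertile cows, a gap of 0.54. Of these, probe 2 lay near the floor of the subfertile arrays. Probes 5 to 7 minus probes 1 and 2 differed by 0.09 between the groups.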
